A study of Mus musculus with 14 samples.

Results

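The subject is a set of 10 genes of metal binding and antioxidant defence in gut muscle: Mt1, Mt2, Gclc, Gclm, Hmox1, Nqo1, Slc7a11, Txnrd1, Srxn1 and Maff. They were taken from a fixed list, and Mt1, Gclc and Maff were put on it because earlier results of these libraries had shown them higher in knockout, so the difference between genotypes was used to choose them. The bulk table held 40481 genes, of which 20886 passed a filter on low counts, and all 10 members were among these. The samples came from the muscularis, which is the muscular layer of the gut together with nerves, vessels and the outer serosa, of C57BL/6 mice. Libraries labelled Carmn iKO are abbreviated KO, and those labelled WT mTmG are abbreviated WT. Carmn encodes a long non-coding RNA found in smooth muscle. The sources used here do not give the deletion's design, driver or timing, nor the animals' age or treatment. Bulk RNA-seq covered 4 groups of 3 libraries (KO colon, WT colon, KO jejunum and WT jejunum), and single nuclei of colon came as 1 library per genotype.

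Metallothioneins are small cysteine-rich proteins that bind zinc, copper and cadmium, and the metal-sensing factor Mtf1 drives their transcription through metal response elements. The antioxidant genes are textbook targets of Nfe2l2 (NRF2), which Keap1 holds in check and which binds antioxidant response elements as a pair with a small Maf protein. Glucocorticoids and inflammation also raise metallothionein transcripts in many tissues. Bach1 represses several of the same genes, Hmox1 most of all.

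Mt1 and Mt2 lie side by side on mouse chromosome 8 (GRCm38), Mt2 at 94172664 to 94173568 and Mt1 at 94179082 to 94180327, both on the plus strand. Gclc lies on chromosome 9 at 77754535 to 77794485 and Maff on chromosome 15 at 79346621 to 79359076, also on the plus strand. RefSeq promoter entries (build GRCm38.p6) were matched for 8 of the 10 members, Gclc and Hmox1 being the others. The stretch from base 250 to base 11 before the start was searched on both strands for the antioxidant core TGACNNNGC, the AP-1 and Maf-type motif TGACTCA, which can overlap it, and the metal response cores TGCACNC and TGCGCNC. Of 32851 promoter entries, 9.67% held the antioxidant core, 4.35% TGACTCA, 10% TGCACNC and 11.8% TGCGCNC. The sequences of Mt1, Mt2, Maff (the first of its 3 entries) and Srxn1 are shown as examples. KO and WT libraries did not overlap in either tissue for the first 3 genes and overlapped in both for Srxn1. Gclm, which did not overlap in either tissue, had an entry that is not shown. The same holds for Nqo1, Slc7a11 and Txnrd1, which overlapped in both. Capitals mark the matches.
Mt1, chr8:94178839-94179078, plus strand: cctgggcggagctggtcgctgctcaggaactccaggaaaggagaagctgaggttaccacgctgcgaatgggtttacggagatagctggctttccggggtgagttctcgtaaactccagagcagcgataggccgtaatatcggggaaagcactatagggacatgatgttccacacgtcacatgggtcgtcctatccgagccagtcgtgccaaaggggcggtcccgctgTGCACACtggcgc
Mt2, chr8:94172368-94172607, plus strand: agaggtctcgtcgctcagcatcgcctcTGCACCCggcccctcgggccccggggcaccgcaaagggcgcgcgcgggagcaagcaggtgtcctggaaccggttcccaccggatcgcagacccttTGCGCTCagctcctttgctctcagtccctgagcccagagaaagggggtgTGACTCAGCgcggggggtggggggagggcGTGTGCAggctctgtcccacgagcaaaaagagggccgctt
Maff, chr15:79346371-79346610, plus strand: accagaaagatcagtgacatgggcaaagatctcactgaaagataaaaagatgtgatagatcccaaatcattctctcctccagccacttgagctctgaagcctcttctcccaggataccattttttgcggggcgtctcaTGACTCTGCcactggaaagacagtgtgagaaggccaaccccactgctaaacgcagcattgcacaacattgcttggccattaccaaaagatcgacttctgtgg
Srxn1, chr2:152105274-152105513, plus strand: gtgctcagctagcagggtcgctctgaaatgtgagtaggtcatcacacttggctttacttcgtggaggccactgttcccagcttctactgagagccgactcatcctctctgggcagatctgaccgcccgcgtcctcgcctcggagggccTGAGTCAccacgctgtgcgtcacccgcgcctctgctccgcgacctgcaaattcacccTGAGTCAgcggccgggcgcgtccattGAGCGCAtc

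The Mt1 stretch held 1 metal core, 23 bases before the start. The Mt2 stretch held 3 metal cores, more than in 98.8% of entries. Mt2 also held TGACTCA inside an antioxidant core, 79 bases before its start. Distances count from the RefSeq start, which for Mt2 lies upstream of the gene model's start given above. Maff held 1 antioxidant core at 112 bases and Srxn1 held 2 copies of TGACTCA, at 102 and 45 bases. Srxn1 also held 1 metal core. Gclm held 1 antioxidant core and 2 metal cores, the third Maff entry 2 overlapping metal cores and the second of 3 Txnrd1 entries 1 antioxidant core, and the stretches of Nqo1 and Slc7a11 held none of the 4 motifs. A match describes letters only.

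The targeted gene was read first as a check of the labels. Bulk levels are in CPM, counts scaled to the library total and by TMM. Carmn stood at 304 to 718 in KO colon against 172 to 352 in WT colon, and 818 to 996 in KO jejunum against 206 to 326 in WT jejunum, so its group level was not lower in the libraries labelled KO. The groups overlapped in colon and KO was higher in every library of jejunum. In smooth muscle nuclei of colon Carmn ran the other way, at 636 CPM of UMIs (unique molecular identifiers, each 1 captured transcript) in the KO library and 1738 in the WT library. Which part of the gene was deleted is not known here, so bulk directions below refer to the label. Bulk libraries held 24254905 to 44315104 counts. KO colon t4 stood apart, with fibroblast markers summing to 12900 CPM against 2701 to 5988 in the other colon libraries, and Il6, an inflammatory cytokine, at 16.9 CPM against at most 0.330. KO jejunum m1 stood apart too, with marker sums of 94240 CPM for smooth muscle, 7531 for fibroblasts and 1438 for macrophages. The other jejunum libraries held 49090 to 53790, 2889 to 3660 and 162 to 806 CPM. Its TMM factor was the lowest of the 12 (0.813), and it was the highest jejunum library for Mt1 and Maff. Nothing in the labels says that libraries came from separate animals, so p-values measure the spread between these libraries, which may be technical.

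Both metallothioneins were higher in every library labelled KO than in any WT library of the same tissue. Mt1 stood at 98.6 (m1), 290 (t4) and 253 (t6) CPM in KO colon and at 21.9 (t1), 25.9 (t6) and 23.4 (t7) CPM in WT colon. In jejunum Mt1 stood at 291 (m1), 108 (t1) and 269 (t4) CPM in KO and at 38.9 (t1), 39.1 (t6) and 38.6 (t7) CPM in WT. The WT libraries of a tissue lay close together, while the KO libraries spread over a wide range, with 1 low library in each tissue (m1 in colon, t1 in jejunum). On the log2 scale the Mt1 difference, KO minus WT, was 3.17 (SE 0.43) in colon and 2.52 (SE 0.41) in jejunum. Because these members were chosen on this contrast, their genotype differences are given as description, with no test.

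Mt2 also separated the labels in both tissues, although the order of libraries within a group could differ from that of Mt1. In KO colon it measured 56.0 (m1), 368 (t4) and 189 (t6) CPM, against 7.94 (t1), 13.1 (t6) and 14.6 (t7) CPM in WT colon. In jejunum it stood at 231 (m1), 46.3 (t1) and 276 (t4) CPM in KO and at 20.3 (t1), 19.0 (t6) and 24.1 (t7) CPM in WT. The same KO libraries were low for Mt1 and for Mt2, and Pearson's r of their log2 CPM over the 12 libraries was 0.98. These libraries share genotype and tissue, so the value describes the set and nothing more. The log2 differences of Mt2 were 4.10 (SE 0.76) in colon and 3.13 (SE 0.72) in jejunum. Mt2 overlaps an antisense gene model, and the sources used here do not say whether counting used strand, so reads of both cannot be told apart. In bulk tissue, a change in the share of a cell type and a change in RNA per cell cannot be told apart either.

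**Figure D1:**
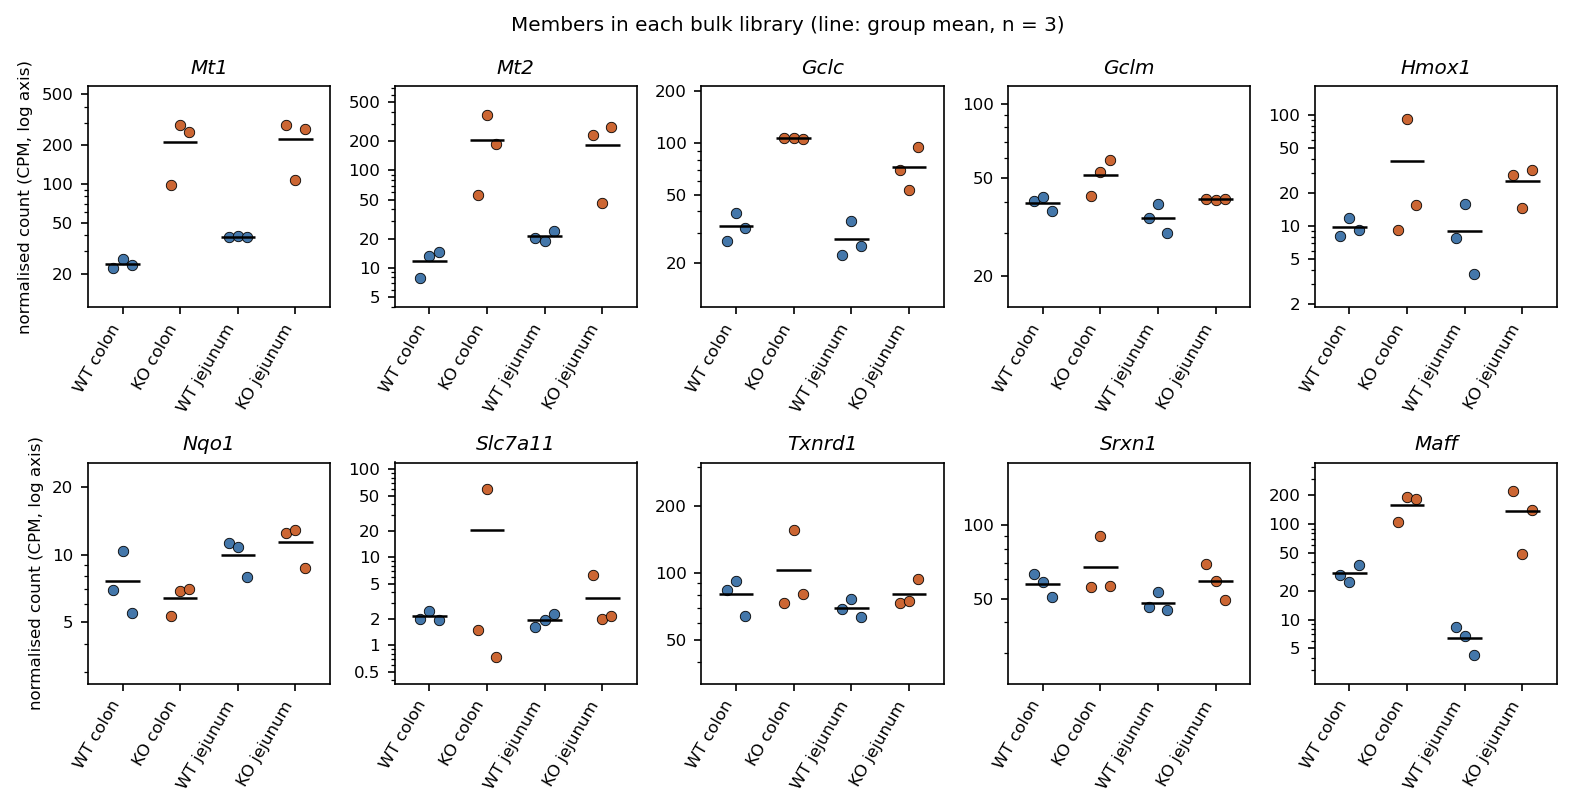
Normalised count (CPM, log axis) of each member in the 12 bulk libraries, WT in blue and KO in orange, with the group mean as a line (n = 3). Mt1, Mt2, Gclc and Maff separate the genotype labels in both tissues, whereas Slc7a11 is high in 1 KO colon library.

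Glutathione synthesis showed an uneven pair. Gclc encodes the catalytic subunit of glutamate-cysteine ligase, the rate-limiting enzyme of glutathione synthesis. Its KO colon libraries held 108 (m1), 108 (t4) and 105 (t6) CPM, against 27.0 (t1), 39.2 (t6) and 31.8 (t7) CPM in WT colon. In jejunum it stood at 69.2 (m1), 52.9 (t1) and 94.5 (t4) CPM in KO against 22.1 (t1), 35.0 (t6) and 25.1 (t7) CPM in WT. The KO colon libraries were nearly equal, KO colon t4 included, and no KO value overlapped a WT value in either tissue. The log2 differences were 1.71 (SE 0.24) in colon and 1.398 (SE 0.24) in jejunum.

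Gclm encodes the modifier subunit of the same enzyme, and its groups were much closer. Its KO colon libraries stood at 42.3, 53.0 and 58.9 CPM (m1, t4, t6) and its WT colon libraries at 40.4, 41.9 and 36.8 CPM (t1, t6, t7). In jejunum it ranged from 40.8 to 41.2 CPM in KO and from 29.9 to 39.3 CPM in WT. The groups did not overlap, yet the log2 differences were only 0.37 (SE 0.16) and 0.25 (SE 0.16). Slc7a11, the cystine importer that feeds glutathione synthesis, was low in 11 of the 12 libraries, at 0.734 to 6.29 CPM. The exception was KO colon t4, at 59.6 CPM, while KO colon m1 and t6 stood at 1.5 and 0.734 CPM. The log2 difference in colon was 3.27 (SE 1.31) with KO colon t4 and -0.93 (SE 0.55) without it, so its sign rested on that library.

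Haem breakdown and quinone reduction differed from each other. Hmox1 encodes haem oxygenase 1, which splits haem into biliverdin, iron and carbon monoxide. In KO colon its levels were 9.14 (m1), 91.0 (t4) and 15.3 (t6) CPM, against 8.16 (t1), 11.8 (t6) and 9.17 (t7) CPM in WT colon. In jejunum it stood at 28.8 (m1), 14.6 (t1) and 32.2 (t4) CPM in KO and at 7.85 (t1), 15.6 (t6) and 3.73 (t7) CPM in WT. The groups overlapped in both tissues. The colon difference was 1.98 (SE 0.79) and fell to 0.33 (SE 0.52) without KO colon t4; the jejunum difference was 1.48 (SE 0.78). The part of macrophages, which take up haem iron, was not tested. Macrophage markers were higher on average in KO for 6 of 8 in colon (summed level 381 to 1156 CPM in KO and 356 to 531 CPM in WT). In jejunum they were higher for 8 of 8 (583 to 1438 against 162 to 409 CPM), and no marker was at 0 across all 12 libraries. Nqo1, the quinone reductase often used as a readout of NRF2, stood at 5.32 to 7.01 CPM in KO colon and 5.46 to 10.4 CPM in WT colon. It ranged from 8.71 to 12.9 CPM in KO jejunum and from 7.91 to 11.3 CPM in WT jejunum. Its groups overlapped in both tissues, with log2 differences of -0.25 (SE 0.28) and 0.19 (SE 0.28).

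The thioredoxin branch also overlapped between labels. Txnrd1 encodes thioredoxin reductase 1, and Srxn1 encodes sulfiredoxin, which restores over-oxidised peroxiredoxins. Txnrd1 stood at 73.8 (m1), 157 (t4) and 80.8 (t6) CPM in KO colon and at 64.1 to 92.5 CPM in WT colon. It stood at 73.1 to 93.8 CPM in KO jejunum and 63.9 to 76.6 CPM in WT jejunum. Srxn1 stood at 55.9 (m1), 90.0 (t4) and 56.2 (t6) CPM in KO colon and at 50.6 to 63.0 CPM in WT colon. It ranged from 49.2 to 69.1 CPM in KO jejunum and from 44.9 to 52.9 CPM in WT jejunum. For both genes the highest library was KO colon t4. The colon differences were 0.37 (SE 0.27) for Txnrd1 and 0.23 (SE 0.21) for Srxn1, and without that library they were -0.06 (SE 0.19) and -0.03 (SE 0.18). In jejunum they were 0.20 (SE 0.27) and 0.30 (SE 0.21).

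Maff encodes a small Maf protein, a DNA-binding partner of NRF2 and Bach factors without an activation domain of its own. Its KO colon levels were 106 (m1), 194 (t4) and 181 (t6) CPM, against 29.5 (t1), 24.5 (t6) and 37.3 (t7) CPM in WT colon. In jejunum it stood at 221 (m1), 48.1 (t1) and 139 (t4) CPM in KO and at 8.32 (t1), 6.73 (t6) and 4.29 (t7) CPM in WT. No KO value overlapped a WT value of its tissue, and WT jejunum was the lowest group. The log2 difference was 2.40 (SE 0.48) in colon and 4.40 (SE 0.53) in jejunum. Without KO jejunum m1 the jejunum difference was 3.83 (SE 0.46).

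Across the set, the groups did not overlap and KO was higher for 5 of 10 members in colon and 5 of 10 in jejunum, namely Mt1, Mt2, Gclc, Gclm and Maff in both. The same held for 8.79% of all genes tested in colon and 11.0% in jejunum. The members were chosen on this contrast, so nothing is read from this count. The median log2 difference over the members was 1.85 in colon and 1.11 in jejunum, beside 0.00426 and 0.0178 over all genes tested. For the same reason nothing is read from these medians. The SEs come from 1 edgeR model of all 12 libraries.

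**Figure D2:**
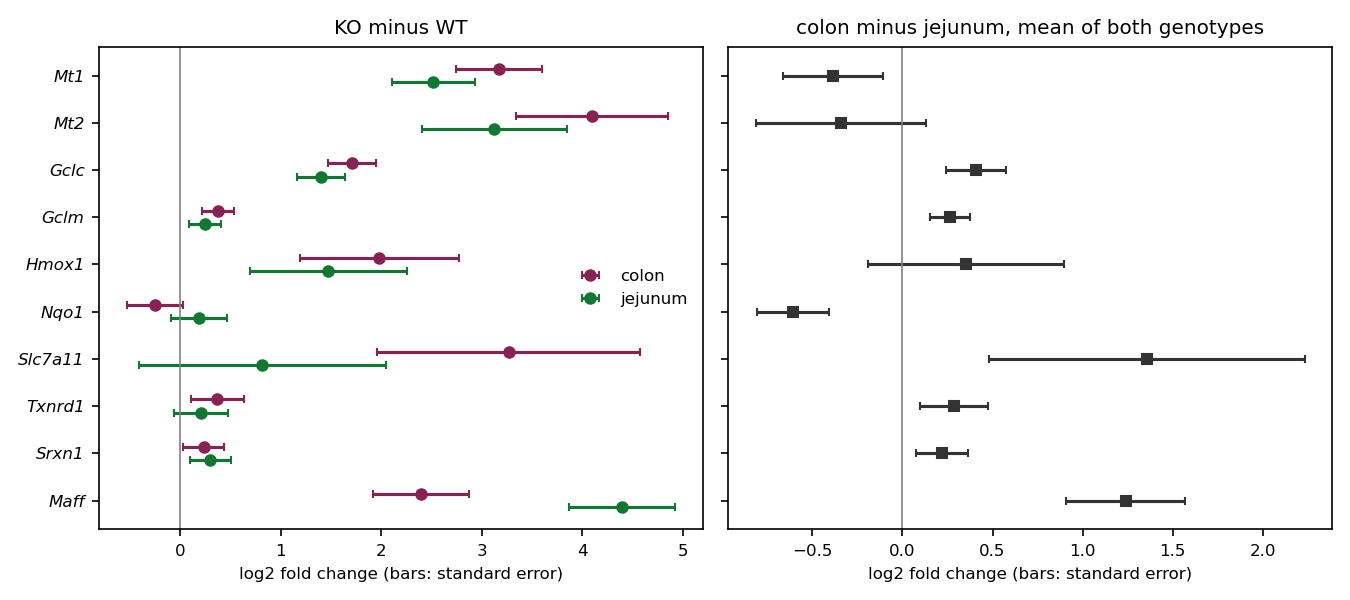
Log2 fold change of the members with standard errors, KO minus WT by tissue (left, description only) and colon minus jejunum averaged over genotypes (right, tested). Mt1, Mt2, Gclc and Maff lie furthest from 0 relative to their errors on the left, and Maff is the 1 member past the threshold on the right.

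The contrast of colon minus jejunum, averaged over genotypes, was not used to choose the members and was tested. Maff was higher in colon, with a log2 difference of 1.24 (SE 0.33, adjusted p = 0.0463, edgeR quasi-likelihood test with Benjamini-Hochberg adjustment over 20886 genes). It was the 1 of 10 members past the threshold, beside 7.28% of all genes tested. The call was lost with no gene filter (adjusted p = 0.0743, edgeR), with limma voom (adjusted p = 0.0577) and with the library tag as a replicate block (adjusted p = 0.247, edgeR). In WT all 3 colon libraries exceeded all 3 jejunum libraries (2.24, SE 0.48). The WT levels also entered the choice of Maff, so this value is given as description, with no test. In the KO libraries the tissues overlapped (0.24, SE 0.46). The contrast of these 2 values is built from the genotype differences that chose Maff, so no test of it is given for Maff. Leaving out 1 library at a time moved the edgeR adjusted p of Maff between 0.0183 and 0.105. It stayed past the threshold in 3 of the 12 such fits, those without KO colon m1, KO jejunum m1 or KO jejunum t1. Nqo1 was next, lower in colon by a log2 value of -0.61 (SE 0.20, adjusted p = 0.0896, edgeR). Gclc was 0.41 (SE 0.17) and Gclm 0.27 (SE 0.11) higher in colon, with edgeR adjusted p-values of 0.166 and 0.181. Mt1 and Mt2 were -0.38 (SE 0.28) and -0.34 (SE 0.47).

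The difference of the genotype difference between tissues was tested over all genes with edgeR. 0 of 20886 genes passed (smallest adjusted p = 0.353), 869 had an unadjusted p under 0.05, and DESeq2 called 37. The members were chosen on genotype differences, so their values here are description, with no test. Among the members the colon difference exceeded the jejunum difference by 0.65 (SE 0.56) for Mt1, 0.98 (SE 0.95) for Mt2 and 0.31 (SE 0.33) for Gclc. For Maff it was smaller, by a log2 value of -2.004 (SE 0.66).

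Genes around the pathway were taken from 6 lists that hold no member (92 genes, 91 tested). These lists were chosen with earlier results known, so their direction is no independent evidence. In colon 5 of 91 passed in KO minus WT, all higher (beside 0.388% of all genes): Fth1, Fkbp5, Cebpd, Errfi1 and Sik1. In jejunum 4 of 91 passed, all higher (beside 0.215%): Fkbp5, Errfi1, Sik1 and Bach2. Of these, 4 in colon and 3 in jejunum belong to the list of 12 glucocorticoid-responsive genes. These counts moved with single libraries. The counts with a library left out are given without the share of all genes called in the same fit. Nothing about the lists is therefore read from the changes. In colon 1 gene passed without KO colon t6 or WT colon t1, 2 without WT colon t6, 3 without WT colon t7 or WT jejunum t6, and 8 without KO colon m1. In jejunum 0 passed without KO jejunum t4, WT jejunum t1 or WT jejunum t7, 1 without KO jejunum m1 or WT jejunum t6, 2 without KO jejunum t1 or any 1 WT colon library, and 8 without KO colon t4, by edgeR in each case.

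The regulators themselves did not pass in either tissue with edgeR. Nfe2l2 differed by 0.20 (SE 0.24) in colon and -0.01 (SE 0.24) in jejunum, and Keap1 by 0.12 (SE 0.15) and -0.15 (SE 0.15). Mtf1, the metal sensor, differed by -0.20 (SE 0.20) and -0.25 (SE 0.21). Bach1 differed by 0.81 (SE 0.31) and 0.25 (SE 0.31). The other small Maf genes leaned higher, Mafg by 0.60 (SE 0.20) and 0.45 (SE 0.20) and Mafk by 0.70 (SE 0.27) and 1.04 (SE 0.27). Mafk passed in jejunum with DESeq2 (adjusted p = 0.0219), and in 0 of 12 edgeR fits with 1 library left out. Bach2, a repressor related to Bach1, rose in jejunum by 1.30 (SE 0.22, edgeR adjusted p = 0.0419), from 8.04 ± 2.07 to 19.8 ± 1.59 CPM (SD, n = 3). The jejunum call held in 1 of 12 fits with 1 library left out, the one without KO colon t4. In colon its difference was 0.69 (SE 0.21, adjusted p = 0.186 in edgeR).

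In the list of 39 glutathione, thioredoxin and NRF2-type genes, Fth1 was the 1 gene that passed in colon. Fth1 encodes the heavy chain of ferritin, the iron store. The log2 difference was 1.75 (SE 0.27), a rise with an edgeR adjusted p of 0.0301, from 1196 ± 34.4 to 4017 ± 952 CPM (SD, n = 3). In colon the Fth1 call held in 5 of 12 fits that each left out 1 library, and without KO colon t4 the adjusted p was 0.0624 in edgeR. In jejunum the Fth1 difference was 1.37 (SE 0.27, adjusted p = 0.0740 in edgeR). Fth1 passed there with DESeq2 (adjusted p = 6.14e-05) and limma voom (adjusted p = 0.0484), and in 1 of 12 edgeR fits with 1 library left out. The difference of Ftl1, the light chain, named after its values were seen, was 0.79 (SE 0.29) in colon and 1.05 (SE 0.30) in jejunum. The list's median log2 difference was 0.19 in colon and 0.16 in jejunum, with 27 and 28 of 39 genes above 0, beside 10497 and 10764 of all 20886 genes. The 12 tested genes of metal handling, zinc and copper transporters among them, had medians of -0.14 and 0.05, with 5 and 6 above 0. The 10 immediate early genes, such as Fos and Egr1, had medians of 1.38 and 1.41, with 9 of 10 above 0 in each tissue and no adjusted p past the threshold; 5 and 7 of them were higher at an unadjusted p under 0.05, beside 1399 and 1571 of all 20886 genes in edgeR. The 12 glucocorticoid-responsive genes had medians of 1.54 and 0.94. Errfi1, a feedback inhibitor of EGF receptors, rose by 2.19 (SE 0.21) in colon and 1.46 (SE 0.21) in jejunum, with edgeR adjusted p-values of 0.00306 and 0.0220. Fkbp5, a chaperone of the glucocorticoid receptor, rose by 2.33 and 2.20 (edgeR adjusted p = 0.0192 and 0.0223), and the kinase gene Sik1 by 1.64 and 1.32 (edgeR adjusted p = 0.0176 and 0.0419). Cebpd, a transcription factor of acute inflammation, rose in colon by 2.68 (edgeR adjusted p = 0.0404) and differed by 2.08 in jejunum (edgeR adjusted p = 0.0971). Cebpd passed in jejunum with DESeq2 (adjusted p = 0.000658), and in 0 of 12 edgeR fits with 1 library left out. With 1 library left out, the colon calls of Errfi1, Fkbp5, Sik1 and Cebpd held in 12, 10, 9 and 6 of 12 fits. In jejunum those of Fkbp5, Errfi1 and Sik1 held in 8, 6 and 4.

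Between tissues, 4 of 91 list genes passed, beside 7.28% of all genes tested; they are named after their values were seen. Gstm2 and Gsta4, glutathione transferases, were lower in colon by log2 values of -1.19 (SE 0.12) and -1.03 (SE 0.19). Errfi1 and the heat shock gene Hspa1b were higher, by 0.87 (SE 0.15) and 1.36 (SE 0.28).

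**Figure D3:**
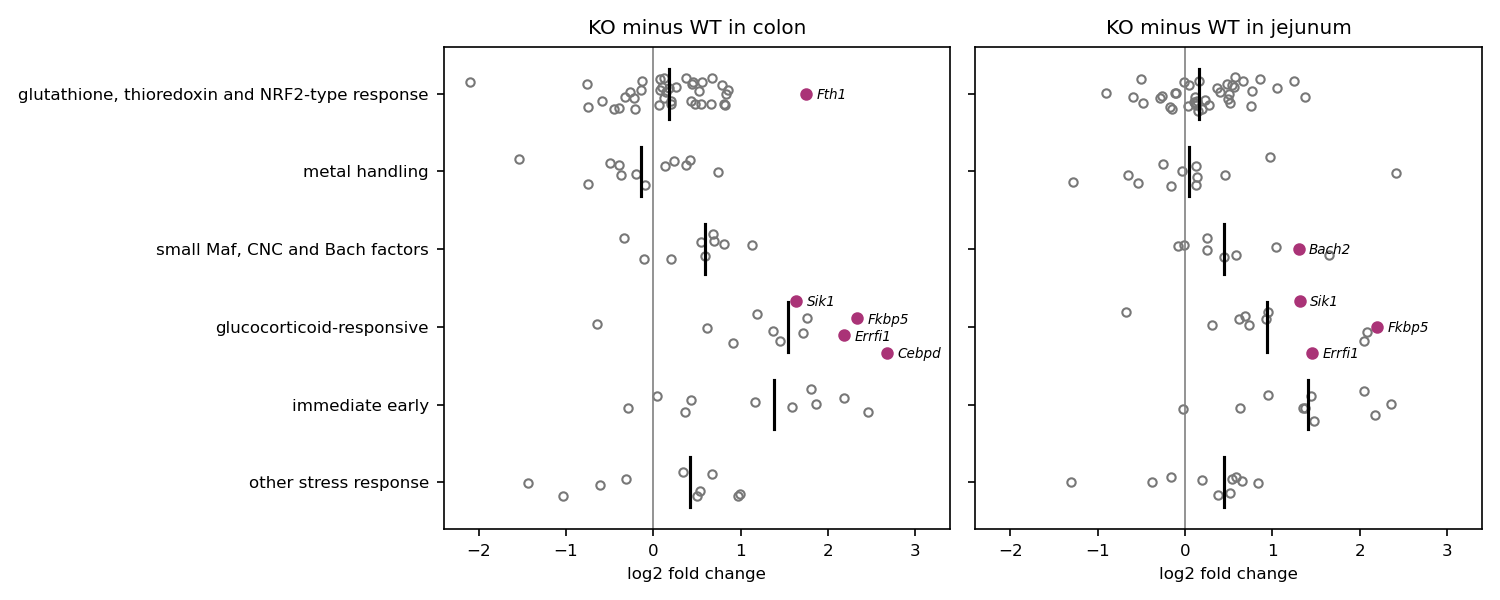
Log2 fold change, KO minus WT, of the tested genes of 6 lists in colon and jejunum, filled where edgeR's adjusted p passed, with list medians as black bars. The metal handling list centres near 0, and 4 filled points in colon and 3 in jejunum belong to the glucocorticoid-responsive list.

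Other genes were ranked by the likeness of their log2 CPM profile over the 12 libraries, among the 14271 genes whose average log2 CPM reached 1. Closest to Mt1 were Fth1 (Pearson's r 0.96), Gm6977 (0.95) and Sra1 (0.94). Closest to Gclc were Psme3 (0.95), Jak1 (0.94) and Rtn4rl2 (0.94), and closest to Maff were Elk4 (0.96), Apod (0.95) and Adamts1 (0.95). Among the members, Gclc was near Maff (0.88) and Mt1 (0.87), whereas Nqo1 lay between -0.24 and 0.11 with every other member. These values describe 12 libraries that share 2 tissues and 2 labels.

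Single nuclei of colon placed the members in cell classes. Of 3476 WT and 2164 KO barcodes, 2632 and 1585 were kept, with median depths of 1698 and 1981 UMIs, and 11 barcodes occurred in both libraries. Classes were named from marker genes after clustering without the members as variable genes. With 1 library per genotype there is no test; intervals are 95% intervals that cover counting error only. Over all kept nuclei Mt1 had 82 UMIs in WT and 342 in KO, a ratio of levels (CPM of a class's UMIs) of 5.71 (4.47 to 7.35). Mt2 had 94 and 345, a ratio of 5.02 (3.99 to 6.38).

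Mesothelial nuclei, from the outer lining of the gut, held the highest metallothionein levels of the named classes shown in KO. Mt1 stood at 58.2 CPM (39.8 to 82.2) in 343 WT mesothelial nuclei and at 218 (188 to 252) in 259 KO nuclei. Mt2 stood at 76.4 (55.1 to 103) and 238 (206 to 273), a ratio of 3.11 (2.23 to 4.45). With nuclei drawn down to 500 UMIs the Mt1 ratio was 3.64 (1.56 to 9.46), and the Mt2 ratio fell to 1.62 with an interval that includes 1 (0.829 to 3.20). Most WT mesothelial nuclei (72.6%) were in cluster 9, while the largest KO share (38.2%) was in cluster 11, which held 99 KO and 4 WT nuclei, so the libraries differ in their kinds of mesothelial nuclei, and library and genotype cannot be told apart. Within cluster 10, with 90 WT and 63 KO nuclei, Mt1 was 166 and 415 CPM, a ratio of 2.50 (1.51 to 4.33). Within cluster 9 it was 23.9 and 62.6 CPM, a ratio of 2.62 (1.01 to 6.87). In cluster 11, with its 4 WT nuclei, the Mt1 ratio was 1.15 (0.311 to 9.63). The Mt2 ratio was 2.97 (1.68 to 5.61) in cluster 10, 1.51 (0.716 to 3.09) in cluster 9 and 0.56 (0.2335 to 1.75) in cluster 11. Mesothelial markers in the bulk libraries were not higher in KO: 1 of 5 had a higher KO mean in each tissue. Their sums were 128 to 254 CPM in KO colon and 159 to 424 CPM in WT colon, and none was at 0 across all 12 libraries.

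Smooth muscle nuclei had far lower metallothionein levels, and these also differed. Mt1 had 3 UMIs in 782 WT nuclei (1.503 CPM, 0.310 to 4.39) and 25 in 411 KO nuclei (17.5 CPM, 11.3 to 25.8), a ratio of 11.6 (3.54 to 60.1). Mt2 had 3 and 16 UMIs, a ratio of 7.43 (2.13 to 39.8). At an equal depth of 500 UMIs Mt1 had 0 UMIs in WT and 6 in KO, and Mt2 had 0 and 5. No ratio could be formed from these counts. Gclc stood at 57.1 CPM (47.1 to 68.6) in WT and 121 (103 to 140) in KO, a ratio of 2.11 (1.66 to 2.70). The largest cluster of the class was cluster 1 in WT (48.6%) and cluster 13 in KO (44.3%). Gclc was higher in KO within each of the 3 clusters with over 50 nuclei of both genotypes, by 1.79 (1.22 to 2.62) in cluster 1, 3.57 (1.53 to 10.2) in cluster 2 and 3.10 (1.76 to 5.81) in cluster 13. Txnrd1 stood at 21.04 CPM in WT and 40.5 in KO, a ratio of 1.92 (1.27 to 2.93), although its bulk groups overlapped. With nuclei drawn down to equal depth the Txnrd1 ratio was 1.09 (0.395 to 2.78). Gclm did not follow Gclc, with a ratio of 1.05 (0.683 to 1.59). Smooth muscle markers summed to 34440 to 46630 CPM in bulk KO colon and 52230 to 75320 CPM in WT colon. Of these markers 0 of 10 were higher in KO, and none was at 0 across all 12 libraries. Their part in the bulk values was not tested.

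**Figure D4:**
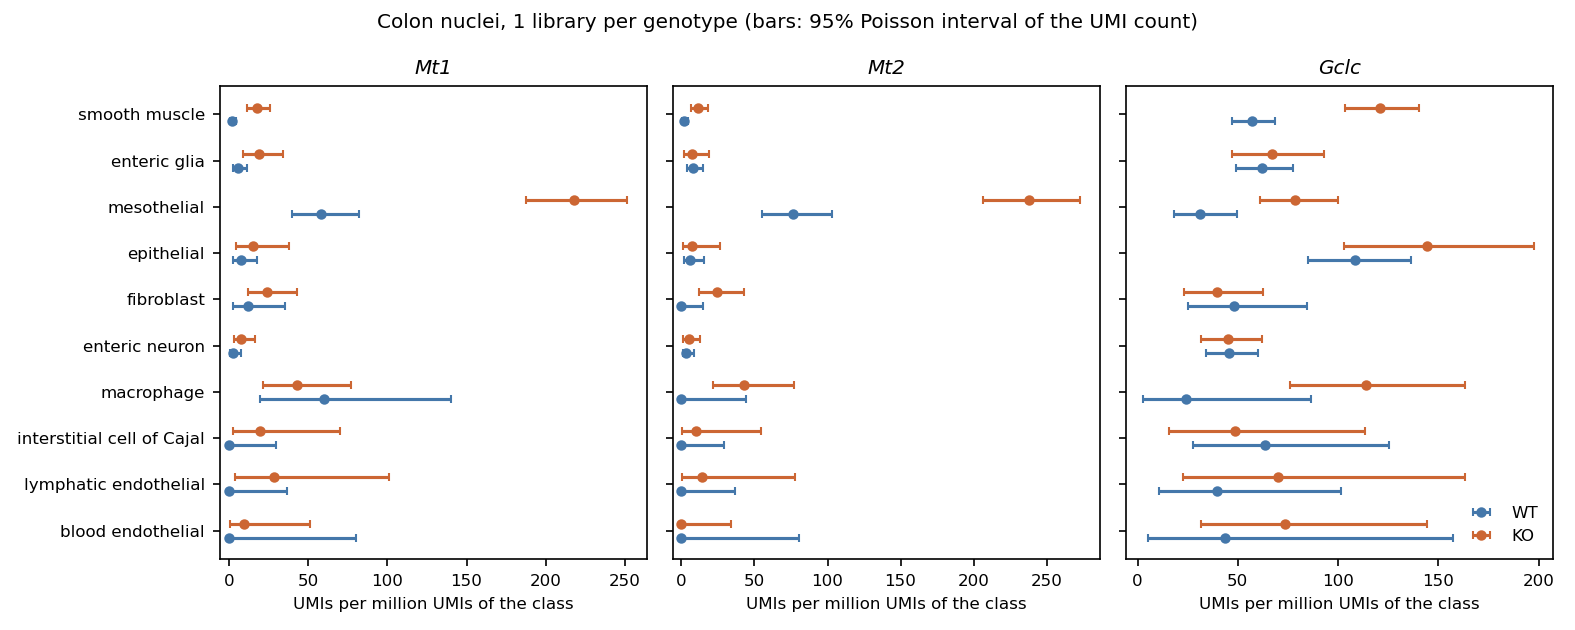
Level (UMIs of the gene scaled to CPM of the class's UMIs) of Mt1, Mt2 and Gclc in colon nuclei, WT in blue and KO in orange, with 1 library each, with 95% Poisson intervals, for classes with at least 20 nuclei of each genotype. In KO, mesothelial nuclei lead for Mt1 and Mt2, and the Gclc intervals of the genotypes lie apart in smooth muscle and mesothelial nuclei. Of the 67 mesothelial KO UMIs of Gclc, 40 came from 9 nuclei of cluster 10.

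Most other differences in Gclc and the metallothioneins rested on few UMIs, as did those of the metallothioneins in smooth muscle. The Gclc ratio was 2.54 (1.47 to 4.61) in mesothelial nuclei and 2.65 (0.825 to 9.88) there at equal depth. Of the 67 mesothelial KO UMIs of Gclc, 40 came from 9 nuclei of cluster 10, whereas the intervals take UMIs as independent. The Gclc ratio was 9.14 (2.91 to 46.2) in cluster 10 and 1.19 (0.406 to 3.15) in cluster 9. Cluster 11 had 0 Gclc UMIs in its 4 WT nuclei. In macrophage nuclei, with 2 UMIs in 50 WT and 29 in 142 KO nuclei, the Gclc ratio was 4.74 (1.2 to 41.0), and 1.41 (0.281 to 13.6) at equal depth. Its ratio was 1.08 (0.707 to 1.62) in enteric glia, 0.98 (0.624 to 1.53) in enteric neurons and 1.33 (0.878 to 1.99) in epithelial nuclei. Mt1 in enteric glia had 7 UMIs in WT and 10 in KO, a ratio of 3.39 (1.16 to 10.48) that was 1.84 (0.153 to 16.04) at equal depth, and in enteric neurons 3 and 6. In fibroblast nuclei Mt2 had 0 UMIs in WT, which by a floor of 3 counts allows up to 12.1 CPM, and 11 in KO (24.1 CPM). Macrophage nuclei made up 1.9% of WT and 8.96% of KO nuclei, and their Mt1 level was 59.97 CPM in WT and 43.2 in KO.

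Some members were too sparse in nuclei to compare. Hmox1 had 9 UMIs in WT and 13 in KO over all kept nuclei, Nqo1 21 and 20, Srxn1 24 and 18, and Maff 12 and 22. Slc7a11 had 60 and 25, a ratio of 0.57 (0.343 to 0.923), while its bulk colon difference was positive with KO colon t4 and -0.93 without it. An unnamed cluster of 89 nuclei with a median of 10719 UMIs held 83 of the 342 KO and 24 of the 82 WT Mt1 UMIs, and Maff was among its 10 leading genes. Whether it holds multiplets was not tested beyond the doublet caller, which marked 7 WT and 10 KO barcodes. With each nucleus drawn down to 500 UMIs, the ratio over all nuclei was 3.32 for Mt1 and 2.52 for Mt2. The part of free RNA in these levels was not tested.

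Open chromatin was read from the same nuclei. Regions had been called separately in each library, 35003 in WT and 26493 in KO. A region was listed within 1 kb of the start for 8 members in WT and 9 in KO, 7 of them in both. The Mt1 start was covered in both, by chr8:94178488-94179530 in WT, with counts in 2.58% of nuclei (2.01 to 3.26), and chr8:94178614-94179493 in KO, in 3.03% (2.24 to 3.995). These regions span the Mt1 stretch printed above. The Gclc start was covered in 2.55% of WT nuclei (1.98 to 3.22) and 2.90% of KO nuclei (2.13 to 3.85). For both genes the intervals overlapped, but they rest on 46 to 68 nuclei with a count and on regions with differing bounds. The overlap therefore does not show that openness was equal. A region over an annotated Maff start was listed in KO alone (chr15:79346956-79347876, 3.16% of nuclei), as was 1 upstream of Mt2 (chr8:94170929-94171977, 1.199%), and a region at Slc7a11 was listed in WT alone (1.10%). The Maff region lay outside the Maff stretch printed above. It spanned the stretch of the second Maff entry, which held none of the motifs searched. The Mt2 region lay outside the printed Mt2 stretch. Because the lists were made separately and the WT library held more counts, a missing entry is not a measured absence.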

How the data were processed

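The members and gene lists were chosen with earlier results of these data known. Bulk values were raw counts per gene as deposited; STAR 2.0.4b, featureCounts 1.4.5 and GRCm38 are named, with no role, per the submitters' processing notes. Nuclei matrices held counts of genes and open regions from Cell Ranger ARC, per the file headers; every gene value was even, so gene values were divided by 2, and the sources used here give no reason. Barcode names and region positions were used as deposited by the authors. Bulk genes were filtered with filterByExpr, scaled by TMM and fitted in 1 edgeR 4.0.16 quasi-likelihood model of 4 groups, with Benjamini-Hochberg adjustment and a threshold of 0.05; the log2 CPM of profiles used a prior count of 2. The named genes are all members, list genes past the threshold in KO minus WT, 6 regulators, and the 3 genes most like Mt1, Gclc and Maff; genes outside this rule are marked. Nuclei with at least 500 UMIs and at most 5% mitochondrial UMIs were kept, after removal of doublets marked by Scrublet, and clustered with scanpy 1.11.5. Scripts were tested on simulated data. DESeq2 1.42.0 and limma 3.58.1 voom were alternatives. Promoter sequences came from RefSeq.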

Additional observations from a re-analysis of the deposited data

How the results depend on the processing

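Of the list genes called in KO minus WT in colon (5), DESeq2 called 17 and a fit to the 6 libraries of the tissue 0; leaving out 1 library gave 1 to 8. In jejunum (4), scaling by total counts gave 2, DESeq2 18 and the fit to 6 libraries 1, with 0 to 8 when 1 library was left out. Of the members, 1 passed between tissues; the number was 0 with no gene filter, 2 with DESeq2, 0 with limma voom, 0 in the KO libraries alone and 0 to 1 with 1 library left out. The difference between tissues of the genotype difference was called for 0 genes by edgeR, 37 by DESeq2 and 0 to 1 with 1 library left out. The causes were not tested. The counts of list genes and members are given without the share of all genes called in the same alternative fit. Nothing about these genes is therefore read from how the counts changed. Residuals of libraries that share a tag correlated between -0.163 and 0.1, and 1 of 5 tags correlated best with its own. With 5 tags and different tissues, these values cannot settle whether a tag pairs libraries of the same animal. With the tag as a replicate block, 0 members passed between tissues, 6 list genes in colon, 5 in jejunum and 0 genes for the difference of differences. The smooth muscle Gclc ratio in nuclei moved from 2.11 to 2.77 at equal depth of 500 UMIs. Some differences that were not called changed sign when 1 library was left out. In colon the range of KO minus WT was -0.929 (without KO colon t4) to 3.88 for Slc7a11, -0.0556 (without t4) to 0.565 for Txnrd1, -0.0318 (without t4) to 0.375 for Srxn1, -0.0312 (without t4) to 0.452 for Nfe2l2 and -0.418 to 0.062 (without WT colon t6) for Nqo1. In jejunum it was -0.0243 (without KO jejunum t4) to 0.437 for Bach1 and -0.116 to 0.156 (without WT jejunum t6) for Nfe2l2, which was also above 0 without KO jejunum m1 (0.0478), with voom (0.00329) and with the replicate block (0.0170). Between tissues it was -0.471 (without KO colon t4) to 0.65 for Hmox1 and -0.744 (without t4) to 1.70 for Slc7a11, and Mt2 turned to 0.147 in the KO libraries alone. Few UMIs limit the nuclei values of Hmox1, Nqo1, Srxn1 and Maff.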
